A study of Homo sapiens with 12 samples.

Results

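The comparison described here is between C4.2B cells treated with the EZH2 inhibitor GSK126 together with the PI3K inhibitor GDC-0941 (COMBO, 3 libraries) and the same cells treated with GSK126 alone (GSK, 3 libraries). These 6 libraries, of 12 in the series, were chosen by their treatment labels, and every gene symbol in the count files entered the comparison. C4.2B is an established human prostate cancer cell line that grows in castrate conditions. Both arms received 5 µM GSK126 and began it 6 days ahead. For the last 24 h they were switched to medium with 10% charcoal-stripped serum, which is low in steroids. The last 24 h differed only in 0.5 µM GDC-0941, which COMBO received. The other 6 libraries were cells without GSK126, given vehicle (DMSO) or 0.5 µM GDC-0941 (GDC), and they show what the PI3K inhibitor did when EZH2 was not inhibited. Replicates A, B and C came from plates of a single cell line, so p-values measure the spread between these libraries, which may be technical.

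PI3K makes a membrane lipid that activates the kinase AKT. AKT holds FOXO transcription factors out of the nucleus and turns on mTOR complex 1, which promotes growth, protein synthesis and lipid synthesis. FOXO factors are known to induce growth factor receptors and their adaptors, cell cycle inhibitors and death genes. EZH2 is the enzyme of Polycomb repressive complex 2 that trimethylates histone H3 at lysine 27, a mark of silent genes. E2F factors, released from the retinoblastoma protein as cells enter the cycle, induce the genes of DNA replication.

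Gene counts were 8785218, 12116189 and 11418356 in GSK A, B and C, and 15853489, 21150375 and 12705581 in COMBO A, B and C. Reads that fell outside genes made up 18.5% to 18.9% of all reads in GSK and 21.0% to 23.0% in COMBO, and the arms did not overlap (difference 3.05 percentage points, exact permutation test, two-sided p = 0.1, the smallest that 3 against 3 can give). COMBO B stood somewhat apart, since its gene counts gave a chi-square of 6.50 and 6.03 for each degree of freedom when set against COMBO A and C, and 1.80 to 4.34 was found within GSK. The part of these differences in the results was not tested. All 10 prostate luminal markers were expressed, at 115 CPM (the usual depth-scaled count, here with TMM scaling) or more in all 6 libraries. Of the 21 markers of leukocytes, endothelium, stroma and basal epithelium, 15 stayed below 1 CPM in all 6 libraries, and the highest was COL1A1 at up to 45.9 CPM.

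To ask what PI3K inhibition added in cells already under EZH2 inhibition, 14189 genes were tested with edgeR's quasi-likelihood test and Benjamini-Hochberg adjustment. Adding GDC-0941 changed 6470 genes (45.6% of those tested, adjusted p under 0.05), of which 2638 (18.6%) were higher and 3832 (27.0%) were lower in COMBO. Most changes were small. The median absolute log2 fold change of the changed genes was 0.36, and 4497 of them changed by less than 0.5. The arms did not overlap in 7367 genes (51.9%), with COMBO above GSK in 3120 (22.0%) and below in 4247 (29.9%). Only 154 genes rose (1.09%) and 264 fell (1.86%) by at least 2-fold. The split between directions depended on scaling: when libraries were scaled by their totals in place of TMM, 51.7% of changed genes were higher in place of 40.8%, and the median log2 fold change of the genes tested was 0.040 in place of -0.014.

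The genes of DNA replication and mitosis fell together and furthest. Of 57 replication genes, 54 fell and the other 3 did not pass the test, with a median log2 fold change of -0.98. Of 72 mitotic genes, 70 fell and the other 2 did not pass, with a median of -0.93. Genes of energy metabolism, the proteasome and protein folding fell by less but almost as uniformly, whereas FOXO targets, growth factor receptor adaptors and prostate luminal markers mostly rose. The plot of gene lists shows each list against the share of all tested genes.

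The promoters of replication genes carried the sequence that E2F factors bind more often than promoters in general. E2F matches were searched as TTTCCCGC, TTTGGCGC or TTTCGCGC on either strand, in the 250 bases before the transcription start as given by RefSeq on GRCh38.p14. These letters were present in 13 of the 49 replication genes with a promoter entry (26.5%), compared with 2.38% of all 27305 promoters. The share was 3.79% for promoters of tested genes and 5.12% for those of genes called lower. The following stretches come from genes whose values are given below, written along the gene's own strand with the match in capitals. They were chosen after their values were seen, from genes that hold a match and fell. Matches also stood in ORC3 and POLE, replication genes with log2 changes of 0.14 and -0.07 that did not pass the test (adjusted p = 0.109 and 0.436). They stood in IRS2 and BTG1 too, which rose.
UHRF1: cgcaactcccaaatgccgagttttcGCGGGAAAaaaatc
DTL: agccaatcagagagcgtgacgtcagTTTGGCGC
E2F1: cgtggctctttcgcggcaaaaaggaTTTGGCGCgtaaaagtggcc
PCNA: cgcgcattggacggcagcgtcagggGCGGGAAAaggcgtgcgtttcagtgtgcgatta
CDC25A: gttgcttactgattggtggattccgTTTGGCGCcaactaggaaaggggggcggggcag
MCM6: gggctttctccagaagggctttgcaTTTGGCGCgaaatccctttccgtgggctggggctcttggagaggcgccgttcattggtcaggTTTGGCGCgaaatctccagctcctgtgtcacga

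The UHRF1 stretch lies at chr19:4909462-4909500 on the plus strand and that of DTL at chr1:212035715-212035747 on the plus strand. The others lie on the minus strand, E2F1 at chr20:33686386-33686430, PCNA at chr20:5126649-5126706, CDC25A at chr3:48188429-48188486 and MCM6 at chr2:135876501-135876620, and MCM6 holds 2 matches. A match is a description of the sequence and not of binding. Of the 12 largest falls, 10 had a promoter entry and 2 of these held a match (20%), against 1 of 9 of the 12 largest rises (11.1%), while MCM10, CLSPN, RRM2 and CDC6 held none in this window. The same letters stood in 5.0% of 60 mitotic promoters and in 2.56% of 39 promoters of recombination and checkpoint genes, lists that fell as well. For the oxidative phosphorylation genes described below, which also fell, the share was 9.38% of 64 promoters.

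For FOXO factors, GTAAACA was searched on either strand. It stood in 3 of 31 promoters of FOXO targets (9.68%) and in 2.98% of all promoters. The letters also stood in 2 of 27 proteasome promoters (7.41%), a list in which 31 of 32 genes fell. Of the 9 promoters among the 12 largest rises, 0 held them. The 3 FOXO targets were TXNIP (chr1:145996672-145996728, minus strand), BTG1 (chr12:92146024-92146080, minus strand) and BCL2L11 (chr2:111120666-111120722, plus strand), shown here because they are the only listed targets in which the letters were found.
TXNIP: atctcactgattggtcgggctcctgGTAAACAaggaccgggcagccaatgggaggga
BTG1: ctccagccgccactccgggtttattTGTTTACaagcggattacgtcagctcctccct
BCL2L11: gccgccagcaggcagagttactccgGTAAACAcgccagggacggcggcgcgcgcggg

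TXNIP, which encodes a brake on glucose uptake, was at 464, 502 and 485 CPM in GSK and 1028, 1065 and 1046 in COMBO, a 2.16-fold rise. BTG1, an antiproliferative gene, rose 1.46-fold. BCL2L11, which encodes the death protein BIM, was at 98.3, 106 and 103 CPM in GSK and 110.5, 111 and 109 in COMBO. Its libraries did not overlap, but the log2 fold change of 0.10 did not pass the test (adjusted p = 0.0881).

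MCM10 fell furthest of the genes named here. It encodes a factor that helps start the replication helicase and lies on chromosome 10 at 13161558 to 13211110 (hg38). It was at 31.5, 27.5 and 31.2 CPM in GSK A, B and C and at 4.24, 3.77 and 3.42 in COMBO, 7.81-fold lower (log2 change -2.97 with an SE of 0.0966, adjusted p = 1.54e-17). CLSPN (chromosome 1, 35720218 to 35769978), which encodes the fork checkpoint mediator claspin, fell from 29.0, 28.4 and 35.9 CPM to 3.89, 4.17 and 4.52, or 7.46-fold. UHRF1, which carries DNA methylation through replication, fell from 16.2, 13.5 and 16.7 CPM to 2.21, 2.97 and 2.04, or 6.19-fold. In all these genes every COMBO library lay below every GSK library.

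**Figure D1:**
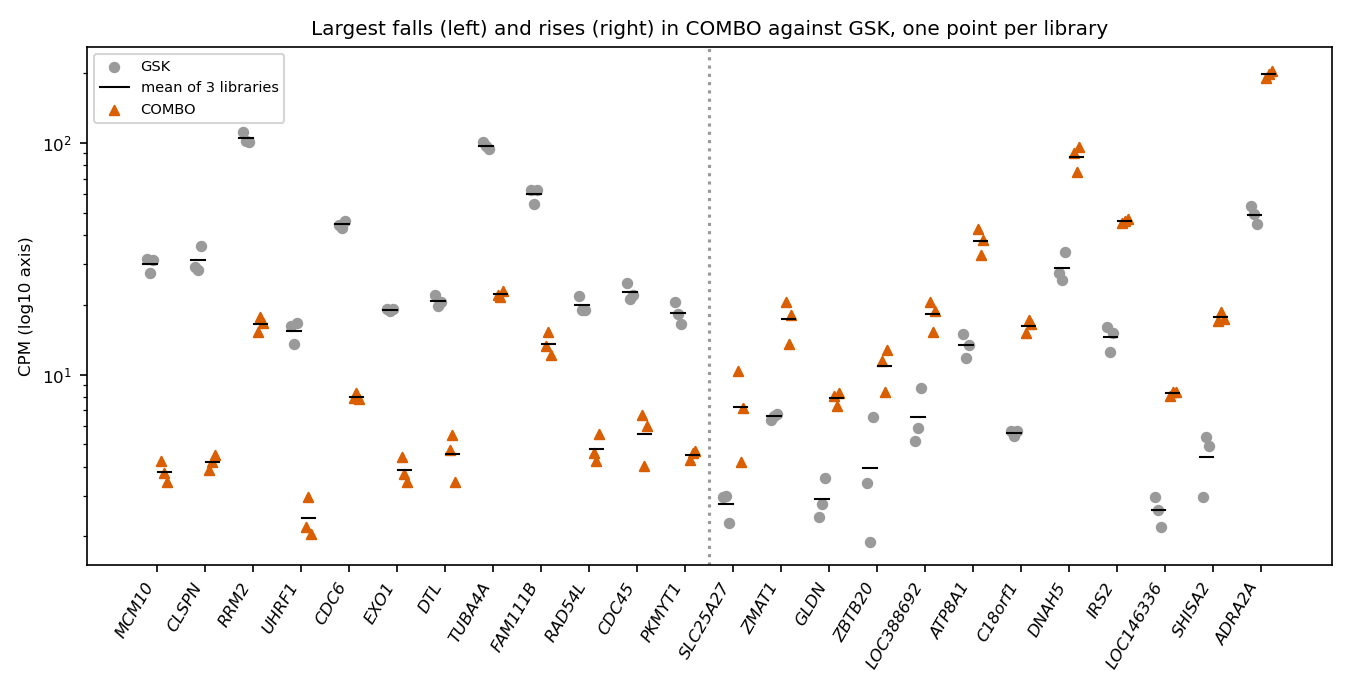
CPM on a log10 axis of the 12 genes with the largest falls (left of the dotted line) and the 12 with the largest rises (right) in COMBO against GSK, among called genes with no overlap between arms whose mean log2 CPM reached 2. Each grey circle is a GSK library, each orange triangle a COMBO library and each bar the mean of 3. For all 24 genes the arms do not overlap. SLC25A27 has the widest COMBO spread, 4.17 to 10.3 CPM.

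Origin licensing marks the sites where replication can begin, and 13 of its 15 genes fell, with a median of -1.09. CDC6, a licensing factor on chromosome 17 at 40287879 to 40304657, was at 44.4, 42.9 and 46.0 CPM in GSK and at 7.90, 8.34 and 7.87 in COMBO, 5.50-fold lower. Its partner CDT1 fell 2.05-fold, and MCM6, a subunit of the helicase ring, fell 2.13-fold. DTL, which encodes the adaptor that targets CDT1 for destruction, fell from 22.1, 19.8 and 20.5 CPM to 4.70, 5.46 and 3.42. All 11 genes of origin firing and the active helicase fell, with a median of -1.35. CDC45, a subunit of that helicase, fell from 24.7, 21.2 and 22.0 CPM to 6.68, 4.04 and 5.97.

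The enzymes of synthesis itself fell by less. Of 10 DNA polymerase subunits 9 fell (median -0.62), as did all 12 genes of the clamp, its loader and strand maturation (median -0.93). PCNA, the sliding clamp, was at 86.6, 84.0 and 88.0 CPM in GSK and at 35.0, 35.5 and 29.8 in COMBO, a 2.56-fold fall. RRM2, the regulated subunit of the enzyme that makes deoxynucleotides, fell from 111, 102 and 101 CPM to 15.2, 17.7 and 16.7 (6.30-fold, adjusted p = 8.97e-20). RRM2 has 3 named pseudogenes, so some of its reads are uncertain. TYMS, which makes thymidylate, fell 2.99-fold and TK1, which salvages thymidine, fell 2.52-fold. Of the 32 nucleotide synthesis genes 24 fell and 1 rose, and purine synthesis, where 9 of 12 fell, had a median of only -0.35.

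E2F1, E2F2 and E2F8 themselves fell 3.75-fold, 3.64-fold and 3.90-fold. E2F1 (chromosome 20, 33675477 to 33686385) was at 36.2, 34.0 and 41.1 CPM in GSK and at 10.2, 9.63 and 9.90 in COMBO. Of 10 genes of the E2F family and its partners 8 fell and 1 rose, and of 10 cyclins, kinases and their regulators in G1 8 fell. CDC25A, the phosphatase that activates these kinases, is counted among those 10 and fell furthest of them, 2.27-fold. Among 7 inhibitors of cyclin-dependent kinases, 2 rose and 2 fell.

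All 15 mitotic cyclins and kinases fell, as did all 7 genes of the chromosomal passenger complex and cytokinesis and all 9 of condensin and cohesin. CDK1, the kinase that drives entry into mitosis, was at 191, 197 and 197 CPM in GSK and at 58.3, 67.9 and 52.3 in COMBO, a 3.25-fold fall (adjusted p = 3.15e-12). MYBL2, a transcription factor of late cycle genes, fell 3.51-fold and PKMYT1, a kinase that holds CDK1 inactive, fell 4.08-fold. In a bulk sample, fewer cycling cells and less of these transcripts in each cycling cell cannot be told apart.

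Homologous recombination repairs double-strand breaks with a sister copy, and 30 of its 44 repair and checkpoint genes fell while 4 rose (median -0.64). EXO1, the nuclease that resects breaks, fell from 19.1, 18.9 and 19.2 CPM to 4.41, 3.73 and 3.42, or 4.92-fold. RAD54L, a partner of the recombinase, fell 4.22-fold and EME1, part of a junction resolvase, fell 3.10-fold. FAM111B, a protease gene outside the lists, fell 4.36-fold, and the tubulin gene TUBA4A fell 4.38-fold. RAD54L, EME1, TUBA4A and PKMYT1 overlap other counted genes, so reads in the shared stretches are uncertain. The same holds for other genes in this report, since 43 of 129 named genes overlap another counted gene. The linker histone HIST1H1B stood at 0.254 to 0.989 CPM in GSK and 0.0728 to 0.174 in COMBO, and of 34 tested histone genes, which polyA selection captures poorly, 7 rose and 5 fell.

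**Figure D2:**
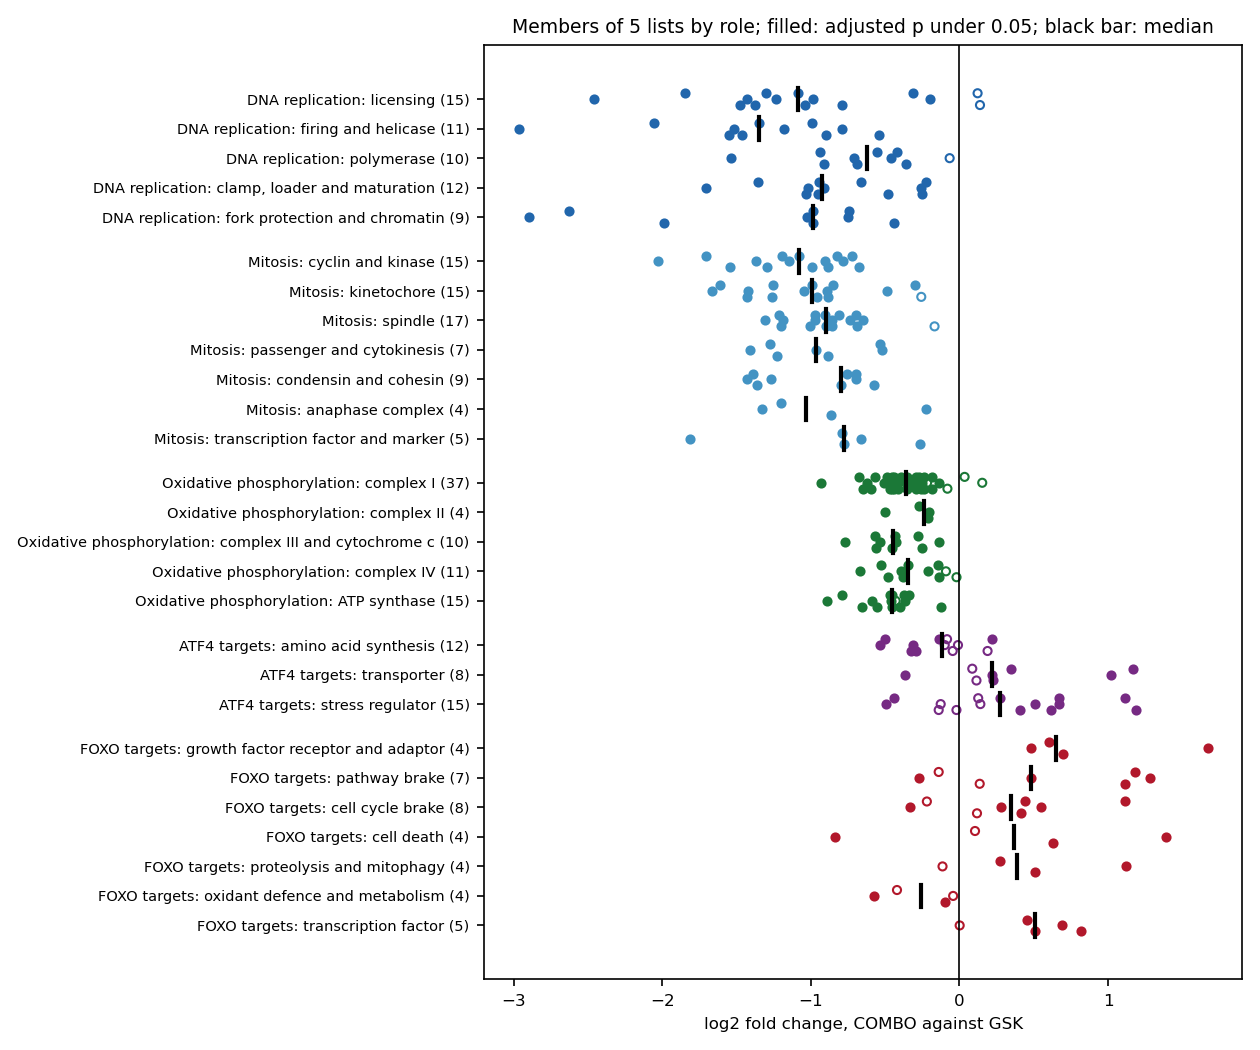
log2 fold change in COMBO against GSK of each tested member of 5 lists, 1 row per role, with the number of tested members in brackets. Filled points have an adjusted p under 0.05 and black bars are medians. All replication and mitosis roles have medians of -0.62 or lower, the oxidative phosphorylation complexes lie between -0.24 and -0.45, the ATF4 roles spread to both sides of 0, and of the FOXO roles the receptors and adaptors and the transcription factors lie above 0 and oxidant defence below it.

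Genes that respire and ferment glucose fell in a second broad group. Oxidative phosphorylation is the chain of 4 complexes and the ATP synthase in the inner mitochondrial membrane, and 70 of its 77 nuclear genes fell while the other 7 did not pass the test (median -0.40). Complex I lost 33 of 37, complex III with cytochrome c 10 of 10, complex IV 9 of 11 and the ATP synthase 14 of 15. NDUFS8, an iron-sulfur subunit of complex I (chromosome 11, 68030617 to 68036644), was at 68.6, 63.3 and 65.8 CPM in GSK and at 37.2, 33.2 and 32.8 in COMBO, 1.91-fold lower (adjusted p = 2.71e-10). ATP5G1 and ATP5G3, which both encode the rotor subunit of the ATP synthase, fell 1.86-fold and 1.73-fold. ATP5G1 has 8 named pseudogenes.

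Upstream of the chain, 15 of 17 enzymes of the tricarboxylic acid cycle and all 8 genes of pyruvate entry fell. IDH2, the mitochondrial isocitrate dehydrogenase, was at 269.9, 273 and 281 CPM in GSK and at 166, 171 and 165 in COMBO. IDH3A, its NAD-linked counterpart, fell 1.53-fold and DLAT, a core subunit of pyruvate dehydrogenase, fell 1.58-fold. Of 5 kinases and phosphatases that switch pyruvate dehydrogenase off and on, 2 rose.

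Glycolysis fell too, in 19 of 25 genes, with the other 6 not past the test (median -0.43). LDHA, the lactate dehydrogenase subunit, was at 547, 538 and 557 CPM in GSK and 245, 261 and 242 in COMBO, a 2.20-fold fall (adjusted p = 5.56e-17), although 6 named pseudogenes make its count uncertain. The lactate exporter SLC16A3 fell 1.76-fold and the glycolytic enzyme ENO1 fell from 1267, 1214 and 1219 CPM to 722, 749 and 737. HK2, the hexokinase that commits glucose to glycolysis, fell 1.31-fold and the glucose transporter SLC2A1 fell 1.35-fold. HIF1A, the hypoxia factor that induces several of these genes, fell 1.23-fold (adjusted p = 1.52e-05). The targets of HIF factors did not move one way: 6 of 22 rose and 6 fell. Among all tested genes 18.6% were higher and 27.0% lower.

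Lipid synthesis followed. Of 29 genes of sterol synthesis and uptake 21 fell and 4 rose (median -0.36), and of 17 genes of fatty acid synthesis 11 fell and 2 rose (median -0.51). The desaturase FADS2 was at 1063, 995 and 940.3 CPM in GSK and at 352, 376 and 385 in COMBO, 2.70-fold lower (adjusted p = 9.47e-17). The neighbouring desaturase FADS1, which overlaps FADS2, fell 1.95-fold, and the elongase ELOVL6 fell 2.04-fold. The sterol enzyme EBP fell 2.30-fold.

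The machinery that makes, folds and degrades proteins also declined, though unevenly. Of 32 proteasome subunits 31 fell (median -0.46), led by PSMD14, a deubiquitinating subunit, which was at 93.6, 95.6 and 93.6 CPM in GSK and 50.5, 55.2 and 50.5 in COMBO. Of 35 chaperones 31 fell and 1 rose (median -0.51), and all 8 subunits of the TRiC chaperonin fell. HSPH1, a cofactor of HSP70, fell 1.85-fold, DNAJA1 fell 1.67-fold and SDF2L1, a chaperone cofactor of the endoplasmic reticulum, fell 1.78-fold. Mitochondrial ribosomal proteins fell in 63 of 75 genes (median -0.33), with MRPL17, MRPS25 and MRPL50 each 1.56-fold to 1.60-fold lower.

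The cytosolic ribosome differed. Of 78 cytosolic ribosomal protein genes 12 fell and 3 rose, with a median of -0.03 that became 0.02, with 4 falls and 10 rises, when libraries were scaled by their totals. The falls were 4 without GSK B, 6 without GSK A and 7 without COMBO C, GDC A or GDC B. Among the called members RPS26 (log2 fold change -0.58), RPS27A (-0.24) and RPL22 (0.20) moved most, and each has 19 or more named pseudogenes. Ribosome biogenesis fell in 35 of 58 genes and rose in 4. EBNA1BP2, NOP58 and TCOF1, factors of ribosome assembly and ribosomal RNA synthesis, fell by 0.67, 0.55 and 0.62 on the log2 scale. Of 35 initiation factor genes 16 fell and 9 rose (5 rises without GSK C), and EIF5A, EIF2B3 and EIF4G1 fell 1.53-fold, 1.53-fold and 1.38-fold.

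Unlike most lists above, FOXO targets rose in 22 of 36 genes and fell in 5 (median 0.45, against -0.014 for all tested genes). IRS2, which encodes the adaptor that links the insulin and IGF1 receptors to PI3K (chromosome 13, 109752695 to 109786583), was at 16.0, 12.5 and 15.2 CPM in GSK and at 45.1, 46.2 and 46.8 in COMBO, 3.18-fold higher (log2 change 1.67 with an SE of 0.0902, adjusted p = 2.08e-13). All 4 receptor and adaptor members of the list rose. KLHL24, a ubiquitin ligase adaptor, rose from 112, 117 and 118 CPM to 269, 304 and 274, or 2.44-fold. BBC3, which encodes the death protein PUMA, rose from 2.42, 2.21 and 2.20 CPM to 5.98, 5.81 and 6.12, or 2.62-fold. In these 3 genes every COMBO library was above every GSK library.

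By role, 4 of 7 FOXO targets that brake the pathway rose and 1 fell, and 5 of 8 cell cycle brakes rose and 1 fell. Of 4 cell death genes 2 rose and 1 fell, with a log2 change of -0.84, the lowest in the list. Of 5 transcription factors 4 rose, and 3 of 4 genes of proteolysis and mitophagy rose. The oxidant defence genes differed, with 2 of 4 falling.

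The list of receptors and adaptors, which shares 4 genes with the FOXO list, rose in 16 of 31 genes and fell in 5 (median 0.21), and the falls were 3 without GSK A, GSK B or COMBO A. Of 11 adaptors 8 rose and 2 fell, and of 14 receptors 7 rose and 3 fell. SHC2, an adaptor of receptor tyrosine kinases, was at 8.68, 11.6 and 10.8 CPM in GSK and at 20.8, 18.0 and 24.0 in COMBO, 1.98-fold higher. The EGF receptor ligand BTC was low, at 0.339 to 1.5 CPM in GSK and 1.82 to 2.48 in COMBO (adjusted p = 0.00749), and without GSK C the adjusted p was 0.0802.

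The components of PI3K signalling mostly changed by small amounts, and more fell than rose. Of 47 genes 23 fell and 6 rose, with a median of -0.12, and with library totals 16 fell and 9 rose. Among all tested genes 27.0% fell and 18.6% rose with TMM. PIK3CA, the alpha catalytic subunit, rose from 27.8, 29.1 and 28.5 CPM to 37.0, 39.0 and 36.4 (1.32-fold, adjusted p = 2.05e-04). PIK3CB, the beta catalytic subunit, was 1.10-fold lower (adjusted p = 0.0293), a call that was lost in 14 of 19 alternatives, among them fits without GSK A (adjusted p = 0.248), GSK C, COMBO A or COMBO C. PIK3CD, the delta subunit, was at 97.2, 104 and 94.9 CPM in GSK and 111, 101 and 111 in COMBO, which overlap (adjusted p = 0.0718), although it passed in 11 of 19 alternatives, among them library totals (adjusted p = 0.0125), both other filters, the fits without GSK B or COMBO B (adjusted p = 0.0166 and 0.0150) and each fit without a DMSO or GDC library. All 4 regulatory subunits fell, with PIK3R3 1.77-fold lower, at 319.8, 334 and 332 CPM in GSK and 178, 189.8 and 189 in COMBO. SGK1, an AKT-related kinase, fell 1.83-fold and TBC1D7, a subunit of the TSC complex that restrains mTOR, fell 1.57-fold.

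The feedback genes of the ERK pathway gave a mixed answer, with 4 of 16 higher and 1 lower. Among all tested genes 18.6% were higher and 27.0% lower. DUSP5, an ERK phosphatase, fell from 7.47, 11.9 and 10.7 CPM to 3.95, 3.73 and 3.93, and DUSP4, a related phosphatase, rose 1.77-fold. MYC was at 188, 174 and 156 CPM in GSK and at 294, 286 and 293 in COMBO, 1.69-fold higher. In the small MYC network, MXD3 fell 1.81-fold and MGA was 1.43-fold higher (adjusted p = 0.0323), and the MGA call was lost without GSK A, GSK B, COMBO A or COMBO C (adjusted p 0.0672 to 0.0884).

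Prostate lineage genes mostly rose. Of 10 luminal markers 7 rose and 3 fell (median 0.47). ACPP, prostatic acid phosphatase, rose from 226, 251 and 253 CPM to 421, 442 and 440.3, SLC45A3, a prostate transporter, rose 1.80-fold, and STEAP2, a metalloreductase, rose 1.62-fold. TMPRSS2, which encodes a membrane-anchored serine protease, rose 1.59-fold and overlaps MX1. HOXB13, a prostate lineage factor, went the other way, from 403, 409 and 379.8 CPM to 296, 305 and 309. The 10 markers also include the keratins KRT8 and KRT18, and all 5 tested keratins fell. ACPP and SLC45A3 are not among the 10.

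The core of the target complex of GSK126 fell. EZH2 was at 55.7, 57.1 and 56.0 CPM in GSK and 34.7, 35.9 and 34.3 in COMBO, 1.61-fold lower (adjusted p = 2.90e-09), and RBBP7, a histone-binding subunit, fell 1.51-fold. EZH1, the sister enzyme of EZH2, rose 1.41-fold. Of 6 core genes 5 fell and 1 rose. A transcript level does not measure the activity of the enzyme.

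Death genes of the BCL-2 family showed no common direction, with 2 of 14 higher and 5 lower. Among all tested genes 18.6% were higher and 27.0% lower. The falls were 3 without GSK B and 2 without COMBO A. Besides BBC3, BMF, which encodes a BH3-only death protein, rose from 95.8, 103 and 105 CPM to 133, 128 and 138, a 1.31-fold rise (adjusted p = 1.47e-06). BAK1, a pore-forming effector, fell 1.64-fold. The list of p53 targets showed no common direction, with 7 of 22 higher and 4 lower. GDF15, a stress cytokine gene in it, rose from 42.4, 40.4 and 40.3 CPM to 75.8, 79.1 and 84.4, and C12orf5, which encodes the fructose bisphosphatase TIGAR, fell 1.59-fold.

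Amino acid stress genes were split. ATF4 is the factor that cells use to answer a shortage of amino acids, and of 35 of its targets 14 rose and 9 fell (median 0.11). Transporters and stress regulators rose, in 5 of 8 and 8 of 15, with 1 and 2 falling, while 6 of 12 synthesis enzymes fell and 1 rose. SLC7A11, the cystine transporter (chromosome 4, 138164097 to 138242349), was at 43.3, 40.2 and 46.4 CPM in GSK and 92.5, 101 and 98.1 in COMBO, 2.25-fold higher (adjusted p = 2.10e-10). ADM2, a secreted peptide gene that overlaps SBF1, rose 2.28-fold, the glycine transporter SLC6A9 rose 2.03-fold, and CHAC1, which degrades glutathione, rose from 1.54, 2.85 and 2.03 CPM to 4.06, 5.46 and 4.66. ATF3, a stress factor, was at 17.4, 18.7 and 19.9 CPM and 20.9, 19.8 and 20.7, which overlap (adjusted p = 0.249). Of 20 tRNA synthetases, which charge amino acids, 11 fell and 2 rose, with VARS, FARSB and TARS falling by 0.68, 0.61 and 0.55 on the log2 scale.

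Among called genes with no overlap between arms whose mean log2 CPM reached 2, the largest rises lay mostly outside the lists. ADRA2A, the alpha-2A adrenergic receptor gene (chromosome 10, 111077029 to 111080907), was at 53.4, 49.1 and 44.5 CPM in GSK and 191, 199 and 205 in COMBO, a 4.06-fold rise (SE 0.0627 on the log2 scale, adjusted p = 7.54e-18). SHISA2, which encodes a protein that retains WNT and FGF receptors in the endoplasmic reticulum, rose from 2.97, 5.38 and 4.92 CPM to 17, 18.6 and 17.4. DNAH5, a dynein of cilia, rose 3.0-fold, ATP8A1, a phospholipid flippase, rose 2.84-fold, and C18orf1 rose 2.90-fold. ZBTB20, GLDN, ZMAT1 and SLC25A27 rose 2.57-fold to 2.71-fold, and the uncharacterised LOC146336 and LOC388692 rose 3.22-fold and 2.72-fold. ZBTB20 rested on 1.90 to 6.53 CPM in GSK and 8.39 to 12.7 in COMBO, and its adjusted p was 0.00982.

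Other groups moved little or without a common direction. Among 34 tested interferon-stimulated genes 8 fell and 4 rose, beside 27.0% lower and 18.6% higher among all tested genes. GBP1, a guanylate-binding protein gene, fell from 2.97, 2.61 and 3.47 CPM to 0.639, 0.533 and 0.801, and OAS3, a sensor of double-stranded RNA, fell 1.76-fold. IFIT1, at 2.20 CPM or less in all 6 libraries, was 1.76-fold lower (adjusted p = 0.0204), a call lost without GSK C or COMBO A (adjusted p = 0.0849 and 0.0954). Of 14 genes of MHC class I and antigen processing 5 rose and 2 fell (2 rises without GSK C and 3 without COMBO C), with the peptide trimming gene ERAP1 1.25-fold higher. Its relative ERAP2 and the MHC activator NLRC5 passed the test (adjusted p = 0.0338 and 0.0264), but lost the call in 5 and 6 alternatives. Without GSK A, ERAP2 had an adjusted p of 0.149 and NLRC5 of 0.152. ERAP2 also lost it without GSK C or COMBO A, and NLRC5 without GSK B, COMBO B or COMBO C.

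Autophagy and lysosome genes rose in 15 and fell in 18 of 61 (23 and 14 with library totals), with 8 of 11 V-ATPase subunits falling. Among all tested genes 18.6% were higher and 27.0% lower with TMM. The protease CTSF rose 1.65-fold, the autophagy factor ATG14 rose 1.61-fold and the lysosomal galactosidase GLA fell 1.83-fold. Of the hypoxia targets CA12, a carbonic anhydrase, fell 1.71-fold, while MXI1, an antagonist of MYC, rose 1.43-fold and LOXL2, a lysyl oxidase, rose 1.66-fold at 1.54 to 4.15 CPM. All 5 tested keratins fell, KRT80 by 1.35, KRT19 by 0.74 and KRT10 by 0.37 on the log2 scale. Of 24 HOX genes 3 rose and 2 fell, HOXA10 and HOXB13 being the falls, and HOXA5 was 1.31-fold higher (adjusted p = 0.00983), a call lost without GSK C or COMBO B (adjusted p = 0.0683 and 0.0584).

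Of 18 neuroendocrine markers only 7 were expressed highly enough to test, and 1 passed: UCHL1 was 1.12-fold lower (adjusted p = 0.0238), a call that 13 of 19 alternatives did not keep, among them fits without GSK A (adjusted p = 0.302), COMBO B or COMBO C. In the epithelial and mesenchymal list 6 of 17 rose and 5 fell, beside 18.6% higher and 27.0% lower among all tested genes. SNAI1, a factor of the mesenchymal state, fell 1.88-fold from 3.30, 3.72 and 3.14 CPM, and ACTA2, smooth muscle actin, fell 2.07-fold from 6.37, 6.40 and 7.71 CPM. SPARC was at 1.11 CPM or less in all 6 libraries and its call was lost without GSK A, GSK B or COMBO B (adjusted p 0.0544 to 0.0872). Of the histones, HIST1H2BJ fell 1.92-fold, and the rise of HIST1H2BL (adjusted p = 0.0373) was lost without GSK A, GSK C or COMBO B (adjusted p 0.0525 to 0.276).

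To ask whether EZH2 inhibition altered what GDC-0941 did, the change from GSK to COMBO was set against the change from DMSO to GDC, which shares no library with it. GDC-0941 alone changed 5695 genes (40.1%), 2827 higher (19.9%) and 2868 lower (20.2%). Across the 14189 genes the changes had a Pearson r of 0.48 and a Spearman rho of 0.53, as a description, since genes are not independent. Of the 2638 genes that rose in COMBO against GSK, 1320 also rose in GDC (50% of the former and 46.7% of the latter) and 77 fell there. Of the 3832 that fell, 1986 also fell in GDC (51.8% and 69.2%) and 203 rose. The difference itself was tested as an interaction, and 3073 genes (21.7%) passed, 697 with a more positive change under GSK126 (4.91%) and 2376 with a more negative one (16.7%). More positive changes made up 22.7% of these calls, but 33.9% with DESeq2 size factors, 33.2% in DESeq2, 40.3% with a filter at a mean of 1 CPM and 55.4% with no filter, so the balance between directions rests on scaling and filtering.

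**Figure D3:**
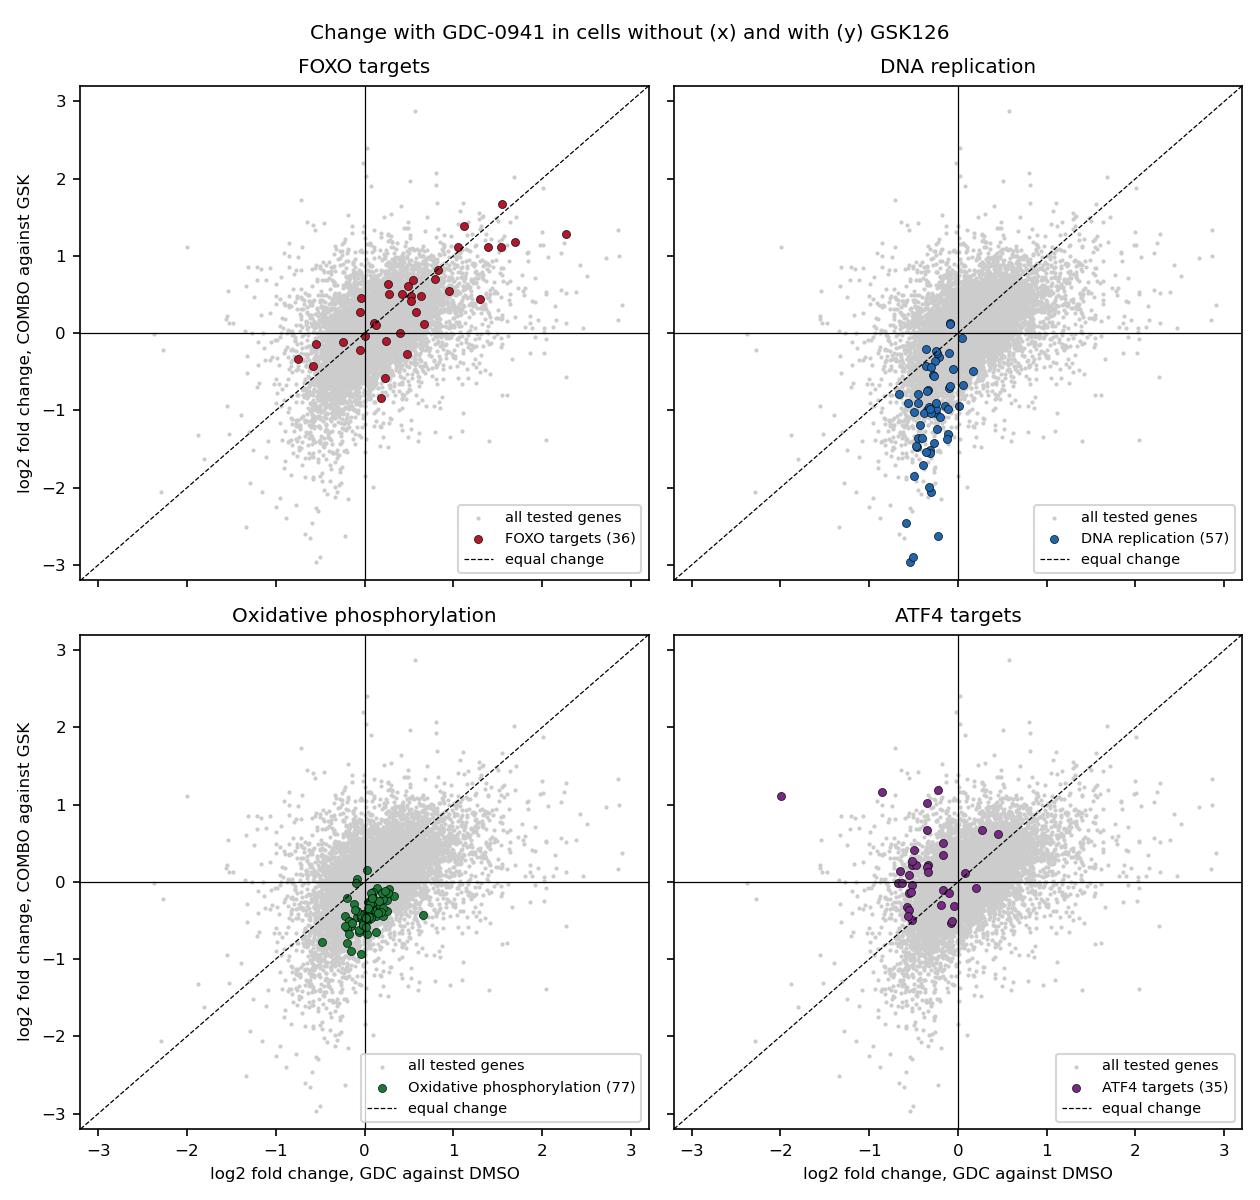
log2 fold change of every tested gene (grey) on adding GDC-0941 to cells without GSK126 (x axis, GDC against DMSO) and with it (y axis, COMBO against GSK), with members of a list in colour in each of 4 panels. On the dashed line the changes are equal, and 10 genes lie beyond the axes. FOXO targets scatter about the line, replication genes lie below it, oxidative phosphorylation genes sit near 0 on x and below 0 on y, and many ATF4 targets lie left of 0 on x and above 0 on y.

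The median change of FOXO targets was close either way. It was 0.45 under GSK126 and 0.48 without it, and 20 of the 36 rose in both. Single members still differed: the interaction was passed by 5 of the 36 above and 11 below. Among all tested genes 4.91% passed above and 16.7% below. IRS2 rose by 1.67 and 1.55, with a difference of 0.12 (SE 0.129, adjusted p = 0.573). KLHL24 rose less under GSK126 on the log2 scale. It began higher there, at 112, 117 and 118 CPM in GSK, and reached 269, 304 and 274 in COMBO. It was at 22.8, 19.6 and 19.9 CPM in DMSO and 95.7, 92.9 and 108 in GDC, a rise of 2.27 that exceeded the rise of 1.28 from GSK to COMBO by 0.99 (adjusted p = 2.59e-08).

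On the log2 scale, replication genes fell further under GSK126. Their median was -0.31 in GDC against DMSO and -0.98 in COMBO against GSK, and 43 of 57 passed the interaction, all of them with the more negative change under GSK126. MCM10 was at 142, 136 and 134 CPM in DMSO and at 93.0, 98.3 and 90.1 in GDC, a fall of 0.54 against 2.97 under GSK126 (interaction -2.42, SE 0.113, adjusted p = 2.28e-13). UHRF1 fell by 0.22 without and 2.63 with GSK126. These 2 genes began lower under GSK126. MCM10 was at 27.5 to 31.5 CPM in GSK, and UHRF1 was at 13.5 to 16.7 there against 64.2 to 66.5 in DMSO. Of the 72 mitotic genes 61 likewise passed with the more negative change.

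Oxidative phosphorylation genes fell under GSK126 but not as a group without it. GDC-0941 alone raised 15 of its 77 genes and lowered 13 (median 0.04), whereas 70 passed the interaction with the more negative change under GSK126. NDUFS8 was at 70.9, 86.3 and 83.9 CPM in DMSO and at 79.3, 82.9 and 73.7 in GDC, which overlap, with a log2 change of -0.04 (adjusted p = 0.628). Its interaction was -0.89 (adjusted p = 4.76e-07). IDH2 behaved in the same manner, with a change of 0.10 in GDC that did not pass and an interaction of -0.81. Cytosolic ribosomal proteins rose in 58 of 78 genes with GDC-0941 alone, and 53 of 78 passed the interaction below.

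Most ATF4 targets fell with GDC-0941 alone and did not fall under GSK126. GDC-0941 alone lowered 26 of 35 and raised 2 (median -0.35), and the interaction was passed by 23 above and 3 below. SLC7A11 fell from 238, 188 and 210.4 CPM in DMSO to 113, 115 and 124 in GDC, a log2 change of -0.85, and rose by 1.17 from GSK to COMBO (interaction 2.02, SE 0.104, adjusted p = 3.89e-11). CHAC1 fell from 10.0, 11.1 and 11.6 CPM to 2.56, 3.39 and 2.28, a change of -2.00, and rose by 1.12 under GSK126. Levels under GSK126 began lower: SLC7A11 in COMBO, at 92.5 to 101 CPM, stayed below its DMSO libraries, and CHAC1 in COMBO, at 4.06 to 5.46, did so too.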

How the data were processed

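PolyA RNA of 12 libraries was sequenced (4 arms of 3). The authors deposited raw counts per gene symbol for each library; per the submitters' processing notes, STAR, HTSeq, DESeq2 and the hg38 build were used, while versions, annotation and strand setting are not given in the sources used here. A normalized table of the series was not used. Groups followed the labels, and 5 summary lines per file were left out. Members and gene lists (38 lists) were chosen with earlier results of these data known.

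Counts were fitted with edgeR 4.0.16 in R 4.3.3 (TMM, low-count filter, robust quasi-likelihood test on all 12 libraries, 1 coefficient per arm), and p-values were adjusted by Benjamini-Hochberg with a threshold of 0.05. The script was tested on simulated data. A call says only that a difference exceeded the spread between libraries. With 8785218 to 21150375 gene counts in the 6 libraries, 3 counts correspond to 0.142 to 0.341 CPM, and these values cover counting error only. Named genes were the 12 largest rises and the 12 largest falls among called genes without overlap between arms whose mean log2 CPM reached 2, up to 3 called members of each list by size of change, 10 genes chosen for the pathway, and the 3 largest interactions each way. CDT1, MCM6, PCNA, CDC25A, TXNIP, BTG1 and BCL2L11 were added after their values were seen. Coordinates came from GENCODE 44 on hg38 and promoters from RefSeq. Alternatives were DESeq2 1.42.0, other scalings and filters, a replicate block, fewer libraries and a fold threshold. A few genes and a list are not reported here.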

Additional observations from a re-analysis of the deposited data

Results flagged for a closer look

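For 74 of the named genes the log2 change on adding GDC-0941 differed between cells with and without GSK126 (interaction, adjusted p under 0.05, edgeR's quasi-likelihood test with Benjamini-Hochberg adjustment). The values in brackets are the change from GSK to COMBO minus the change from DMSO to GDC, so a negative value is a more negative change under GSK126.

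Replication, repair and nucleotide genes had the more negative change: MCM10 (-2.42), CLSPN (-2.40), RRM2 (-2.04), UHRF1 (-2.41), CDC6 (-1.87), EXO1 (-1.78), DTL (-1.96), FAM111B (-1.79), RAD54L (-1.66), CDC45 (-1.75), EME1 (-1.20), TYMS (-1.28) and TK1 (-1.06). Cycle regulators and mitotic genes followed with PKMYT1 (-1.57), E2F8 (-1.68), E2F1 (-1.43), E2F2 (-1.28), MYBL2 (-1.33), CDK1 (-1.00), MXD3 (-0.92) and TUBA4A (-1.18).

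In metabolism the genes were LDHA (-0.47), SLC16A3 (-0.56), ENO1 (-0.43), IDH2 (-0.81), DLAT (-0.31), IDH3A (-0.34), NDUFS8 (-0.89), ATP5G1 (-0.73), ATP5G3 (-0.60), EBP (-0.68), FADS2 (-0.98), ELOVL6 (-0.68) and FADS1 (-0.77). In signalling and the FOXO list they were KLHL24 (-0.99), PIK3R3 (-0.68), TBC1D7 (-0.61) and SHC2 (-1.08), and in the BCL-2 family BMF (-0.29). Protein synthesis, folding and degradation gave VARS (-0.50), FARSB (-0.23), EBNA1BP2 (-0.29), NOP58 (-0.26), SDF2L1 (-0.41), DNAJA1 (-0.27), RPS26 (-0.40), RPS27A (-0.36), MRPL17 (-0.33), MRPS25 (-0.46), MRPL50 (-0.29), PSMD14 (-0.43), PSMA3 (-0.31), PSMA7 (-0.51), EIF5A (-0.51) and EIF4G1 (-0.17).

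The remaining genes with a more negative change were OAS3 (-0.76), GLA (-0.52), CA12 (-0.38), EZH2 (-0.33), RBBP7 (-0.52), UCHL1 (-0.39), KRT80 (-0.61), KRT19 (-1.06), TMPRSS2 (-0.59), HOXB13 (-0.49) and SEMG2 (-2.83). SEMG2, a seminal protein gene, was at 0 to 0.0722 CPM in DMSO and 0.268 to 0.354 in GDC, so its value rests on few counts.

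Genes with a more positive change under GSK126 were CHAC1 (3.11), SLC7A11 (2.02), ADM2 (1.41), SLC6A9 (1.37), GDF15 (1.26), ATF3 (0.47), ATG14 (0.35) and LOC388692 (0.96). Of the 74 calls 56 held in all 18 alternatives that could be fitted. The call of RPS26 was lost in all 18, those of SDF2L1 and KRT80 in 14, EIF4G1 in 13, FARSB and BMF in 11, EBNA1BP2 in 9, NOP58 and MRPL50 in 8, TMPRSS2 in 6, EZH2 in 5, DLAT, DNAJA1 and PSMA3 in 4, SHC2 in 2 and GLA, RPS27A and MRPL17 in 1. Leaving out a single library lost the call of each of these genes but MRPL17, which lost it with no filter.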

How the results depend on the processing

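The 6470 genes changed between COMBO and GSK became 5683 in DESeq2, 6461 with DESeq2 size factors, 6465 with library totals, 6480 with no filter, 6363 with a filter at a mean of 1 CPM and 6006 with only the COMBO and GSK libraries. Leaving out 1 library in turn gave 5552 to 6509 changed genes, 2318 to 3032 higher and 3025 to 3759 lower, and without COMBO B, the library that stood apart, 6325 changed. Requiring at least a 2-fold change left 418 genes, 154 higher and 264 lower, and 193 interactions in place of 3073, because the threshold is stricter. The interaction count was 2097 to 3050 on leaving out 1 library, with 24.7% to 42.9% more positive; the cause was not tested. The replicate letters showed no pairing of GSK with COMBO. Deviations of same-lettered libraries of these arms correlated at -0.034, -0.017 and 0.051, and those of different letters at -0.034 to 0.052. Same-lettered GDC and COMBO libraries correlated at 0.116, 0.188 and 0.073, of which the last is below 0.1. Different letters were not compared for GDC and COMBO, so pairing of those arms was not tested. With the replicate block 6412 genes changed and 2944 passed the interaction. Over the alternatives, the log2 changes of named genes kept their side of the threshold in 2379 cases, lost the call in 56 and gained it in 11. Their interactions kept it in 2155, lost it in 134 and gained it in 24. No direction reversed among called values. Of the list counts and medians, 2027 stayed near the reported value and 139 moved, mostly in lists with few calls. PI3K components had 6 to 10 rises and 16 to 23 falls, autophagy and lysosome genes 11 to 23 and 12 to 19, and cytosolic ribosomal proteins 2 to 10 and 4 to 13. Depth limits genes near 1 CPM, such as IFIT1 and SPARC.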
